A study of Mus musculus with 2 samples.

Results

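The phagocyte NADPH oxidase was followed through 5 of its subunit genes, Cybb, Cyba, Ncf1, Ncf4 and Rac2, all of which were found among the 22376 genes with a count in the cells used. They were chosen by name and not by a rule on their values, but with earlier results of these data known. No filter on low values was applied to them. The data come from 63.3 cells, a mouse acute myeloid leukemia line, in 10 cultures that were tagged with lipid-anchored DNA barcodes (MULTI-seq), pooled, and read by 10x Genomics v3 single-cell chemistry in 2 runs of the same pool. All cultures were grown in RPMI with dialyzed serum, stem cell factor from conditioned medium and 0.5 µM beta-estradiol. In the first series brequinar, an inhibitor of dihydroorotate dehydrogenase in pyrimidine synthesis, was added at 2 µM for 6, 12, 24 or 48 h, with beta-estradiol still present. In the second, the cells were washed and kept without beta-estradiol for 6, 12, 24 or 48 h. Each series has its own 0 h culture, and nothing in the labels tells whether solvent was added to that of brequinar. No untreated culture was kept for 6 to 48 h, so treatment and time in culture cannot be told apart. The cells are 1 line, and the labels do not say which gene of the line responds to beta-estradiol.

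The oxidase makes superoxide by passing electrons from NADPH across a membrane to oxygen, and neutrophils and macrophages use it against microbes. Its catalytic core is a membrane pair of gp91phox, encoded by Cybb, and p22phox, encoded by Cyba, each of which stabilizes the other as protein. On activation the cytosolic organizer p47phox (Ncf1), p40phox (Ncf4) and the small GTPase Rac2 join the core, and in people loss of any of several of these genes causes chronic granulomatous disease.

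Levels are counts per 1000000 spliced unique molecular identifiers (CPM) summed over the cells of a culture. With 1 culture per condition there was no replicate to set a difference against and no test was run. Intervals are exact 95% intervals of the counting error and of nothing else. A gene was called higher or lower where its CPM differed by at least 1.5-fold and the interval of the fold excluded 1. The background share beside a count is the percentage that met the same rule among all genes with at least 20 CPM in at least 1 of the compared cultures. Cybb before 48 h and Ncf1 in nearly every culture lay under that minimum. For calls on them against 0 h or between the series, the share among all genes with a count, with no minimum, is given as well. For steps between later time points only the share with the minimum is given. The 12540 cells numbered 528 to 1536 per culture, with 5236694 to 19931921 UMIs per culture, and 3 counts stand at 0.151 to 0.573 CPM. Median UMIs per cell were 9782 at 48 h and 14849 at 0 h of brequinar, and 6509 at 48 h and 15229 at 0 h of withdrawal. Cells with at least 10% mitochondrial UMIs made up 1.70% at 48 h and 18.4% at 0 h of brequinar, and 3.12% at 48 h and 16.6% at 0 h of withdrawal. Free RNA, profiled in barcodes of 2 to 100 UMIs, held Cybb at 11.7 CPM and Ncf1 at 26.3 CPM. A fixed 5% of that profile would bring 0.587 CPM of Cybb and 1.31 CPM of Ncf1 into any culture.

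The subunits differed in how much of their 48 h level was present at 0 h. Cybb alone stood far below the rest. Rac2 was present at 0 h at 71.6% (brequinar) and 61.7% (withdrawal) of its 48 h level. For Ncf4 these shares were 60.1% and 29.7%, and for Cyba 42.2% and 27.0%. Ncf1 was present at 0 h at 25.5% (brequinar) and 15.0% (withdrawal) of its 48 h level. Cybb stood at 0 h at 1.06% (brequinar) and 1.04% (withdrawal) of its 48 h level and was still at 1.85% (brequinar) and 2.19% (withdrawal) of it at 24 h, so nearly all of its 48 h level came after 24 h in both series. At 48 h of brequinar 4 of the 5 subunits were called higher than at 0 h and none lower, where the background shares were 25.7% higher and 17.3% lower. With withdrawal all 5 were called higher at 48 h, where the background shares were 21.5% higher and 40.7% lower.

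**Figure D1:**
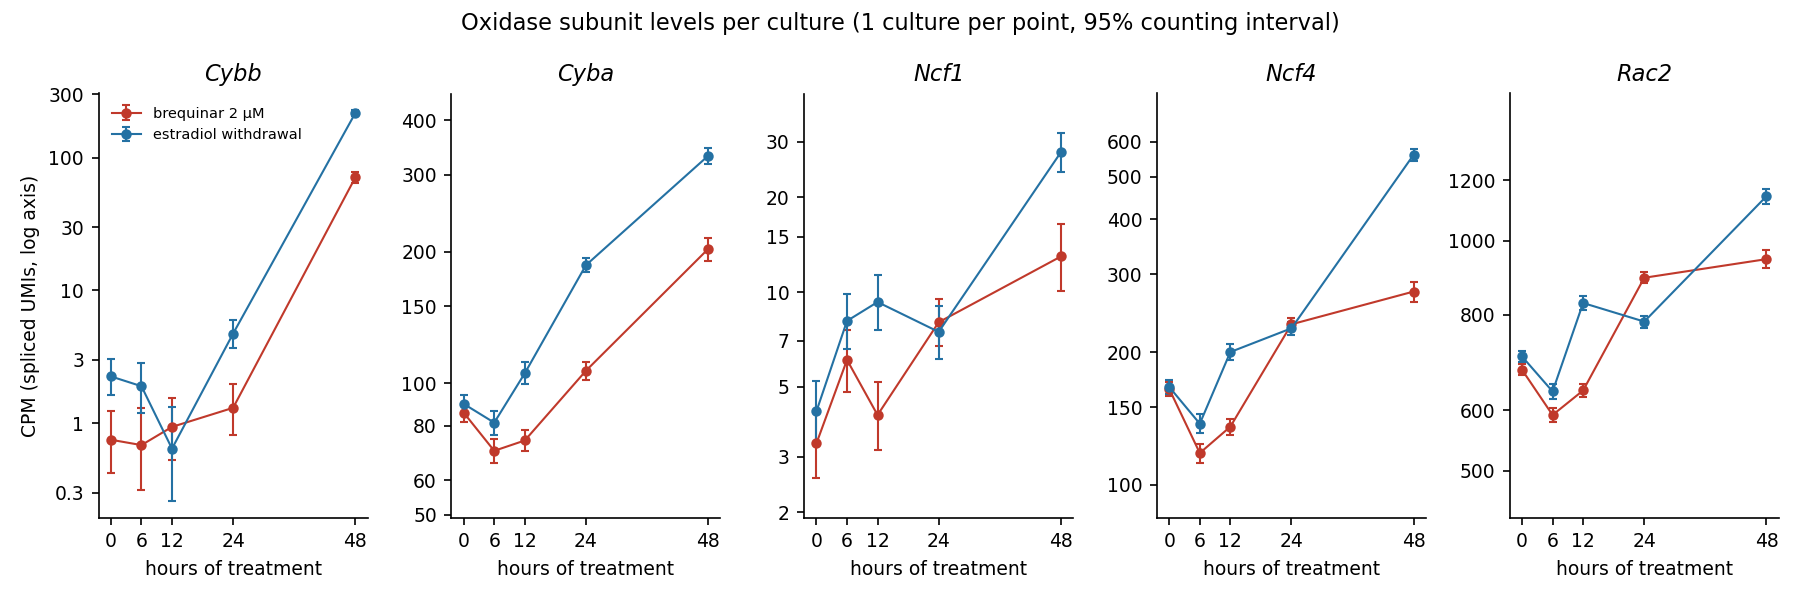
CPM of each subunit (log axis, each panel with its own range) against hours of treatment, for brequinar (red) and beta-estradiol withdrawal (blue), with 1 culture per point and bars for the 95% counting interval. Cybb stayed at or below 4.74 CPM until 24 h and reached 70.8 CPM (brequinar) and 216 CPM (withdrawal) at 48 h, while Rac2 was at 678 CPM (brequinar) and 706 CPM (withdrawal) already at 0 h.

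The files list Cybb as ENSMUSG00000015340.10 (chromosome X), Cyba as ENSMUSG00000006519.11 (chromosome 8), Ncf1 as ENSMUSG00000015950.13 (chromosome 5), Ncf4 as ENSMUSG00000071715.12 and Rac2 as ENSMUSG00000033220.7 (both chromosome 15). The RefSeq promoter table (GRCm38.p6) held 3 of the 5 members, Cybb, Cyba and Ncf1. The 300-base windows of the membrane pair, 250 bases before to 50 after the annotated start, are shown because these partners came at different times. Capitals mark the letters matched by any of 3 motifs searched on both strands: GAGGAA (the core bound by the factor PU.1), TTGCNNAA (C/EBP) and the ETS-IRF composite element (an ETS core beside an interferon regulatory factor core). Cybb lies at chrX:9469275-9469574 and Cyba at chr8:122432891-122433190, both on the minus strand and printed 5′ to 3′ in the direction of the gene.
Cybb: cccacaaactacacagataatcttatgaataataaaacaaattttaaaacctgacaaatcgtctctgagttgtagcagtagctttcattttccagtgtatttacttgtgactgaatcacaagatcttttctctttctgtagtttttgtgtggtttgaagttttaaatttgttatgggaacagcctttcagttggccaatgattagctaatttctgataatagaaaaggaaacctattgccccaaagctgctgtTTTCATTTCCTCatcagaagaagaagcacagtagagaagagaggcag
Cyba: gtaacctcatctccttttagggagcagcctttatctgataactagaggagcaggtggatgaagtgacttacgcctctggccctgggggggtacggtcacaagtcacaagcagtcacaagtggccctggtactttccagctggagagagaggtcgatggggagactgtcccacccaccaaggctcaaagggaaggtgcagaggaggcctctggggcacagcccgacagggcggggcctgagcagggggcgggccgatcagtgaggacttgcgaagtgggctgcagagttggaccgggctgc
In the Cybb window GAGGAA was matched on the opposite strand at bases 260 to 265, and the ETS-IRF composite on the opposite strand at bases 254 to 263, so the matches overlap. They lie within the 50 bases after the start. The Cyba and Ncf1 windows held no match of the 3 motifs. Of 32851 promoter windows of the same length, 28.3% held GAGGAA, 10.8% TTGCNNAA and 2.72% the composite. These matches are a description of letters and were not tested for binding.

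Cybb, which encodes the electron-carrying subunit gp91phox, had 0.753, 0.686, 0.940, 1.31 and 70.8 CPM at 0, 6, 12, 24 and 48 h of brequinar, from 15, 9, 15, 22 and 371 UMIs. With withdrawal it had 2.25, 1.90, 0.645, 4.74 and 216 CPM at the same times, from 42, 23, 7, 69 and 1484 UMIs. In both series the 48 h culture alone stood far above the other 4. The 48 h level was 94.1-fold that of 0 h with brequinar (56.3 to 169.9) and 95.9-fold with withdrawal (70.6 to 134). Against the 24 h culture it was 54.2-fold higher with brequinar (35.2 to 87.5) and 45.7-fold higher with withdrawal (35.9 to 59.0).

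The size of the 48 h fold of Cybb rests on few UMIs at 0 h. With the 0 h culture of the other series in its place, the fold was 31.4 for brequinar and 287 for withdrawal. The levels of 0.645 to 2.25 CPM at 0, 6 and 12 h are of the order of what free RNA could give, and they are not read here as expression by the culture at large. Without cells of at least 10% mitochondrial UMIs the folds were 90.7 for brequinar and 95.9 for withdrawal. Without the 3 cells of 5 or more Cybb UMIs in its 0 h culture the fold for withdrawal was 201 (129.6 to 329.7). At 24 h of withdrawal Cybb was called higher than at 0 h, at 2.10-fold (1.41 to 3.16), where 7.40% of all genes with a count were. In that culture 3 of 1393 cells held 28 of the 69 UMIs, and its other cells stood at 2.82 CPM. Without cells of 5 or more Cybb UMIs the ratio was 2.62 (1.499 to 4.72), but 1.25 (0.793 to 1.97) and not called when such cells were left out at 24 h alone. At 24 h of brequinar it was 1.74-fold (0.862 to 3.60), an interval that includes 1. At 12 h of withdrawal Cybb was called lower, at 0.286-fold (0.108 to 0.643), where 5.95% of all genes with a count were. That call was lost against the other 0 h culture, at 0.857 (0.296 to 2.23), and without cells of 5 or more Cybb UMIs, at 0.599 (0.214 to 1.47).

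Cyba, which encodes the membrane partner p22phox, had 85.6, 70.0, 73.9, 107 and 203 CPM at 0, 6, 12, 24 and 48 h of brequinar. With withdrawal it had 89.7, 81.2, 105, 186 and 332 CPM. The lowest culture of each series was that at 6 h and the highest that at 48 h. The 48 h level was 2.37-fold that of 0 h with brequinar (2.19 to 2.56) and 3.70-fold with withdrawal (3.47 to 3.94). At 24 h Cyba was called higher with withdrawal, at 2.08-fold (1.95 to 2.21), and was 1.25-fold with brequinar (1.17 to 1.33), which is under the threshold. By 24 h Cyba had 52.6% of its 48 h level with brequinar and 56.2% with withdrawal, when Cybb had 1.85% (brequinar) and 2.19% (withdrawal) of its own.

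Ncf1, which encodes the organizer p47phox, had 3.31, 6.10, 4.07, 8.03 and 12.99 CPM at 0, 6, 12, 24 and 48 h of brequinar, from 66, 80, 65, 135 and 68 UMIs. With withdrawal it had 4.19, 8.11, 9.31, 7.48 and 27.8 CPM, from 78, 98, 101, 109 and 191 UMIs. Among the 5 members only Ncf1 was called higher at 6 h, at 1.84-fold with brequinar (1.31 to 2.59) and 1.94-fold with withdrawal (1.42 to 2.64). The background shares at 6 h were 8.82% higher for brequinar and 12.3% higher for withdrawal, and with no minimum 9.26% and 12.6%. In cells thinned to 2500 UMIs the 6 h ratios were 1.08 for brequinar (0.433 to 2.68) and 2.22 for withdrawal (0.948 to 5.61), and neither was called. At 48 h Ncf1 was 3.92-fold its 0 h level with brequinar (2.75 to 5.59) and 6.65-fold with withdrawal (5.08 to 8.76). With no minimum 17.7% of genes were called higher at 48 h of brequinar. The level of Ncf1 was under 20 CPM in every culture but that at 48 h of withdrawal.

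Ncf4, which encodes p40phox, a subunit that binds phosphoinositides of the phagosome, had 165, 118, 136, 231 and 274 CPM at 0, 6, 12, 24 and 48 h of brequinar. With withdrawal it had 167, 138, 200.1, 227 and 561 CPM. The cultures at 24 h differed little between the series, and those at 48 h stood far apart. With brequinar most of the difference between 0 h and 48 h (60.6%) was present at 24 h, whereas with withdrawal 15.2% of it was. The 48 h level was 1.66-fold that of 0 h with brequinar (1.56 to 1.77), a call that was lost with TMM scaling (1.45-fold, 1.36 to 1.54). With withdrawal it was 3.36-fold (3.21 to 3.53).

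Rac2, which encodes the hematopoietic Rac GTPase of the active complex, had 678, 592, 637, 895 and 947 CPM at 0, 6, 12, 24 and 48 h of brequinar. With withdrawal it had 706, 635, 829, 784 and 1144 CPM. It was the member with the smallest fold at 48 h in both series. The ratio to 0 h was 1.40 with brequinar (1.35 to 1.44), which is under the threshold, and 1.62 with withdrawal (1.58 to 1.67).

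**Figure D2:**
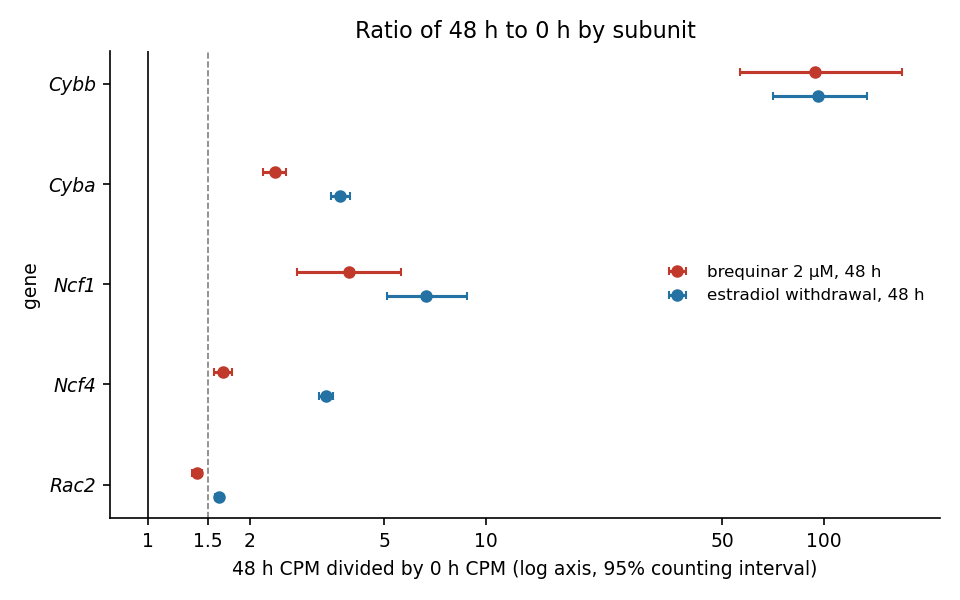
Ratio of the 48 h to the 0 h CPM (log axis) of each subunit, for brequinar (red, upper point) and beta-estradiol withdrawal (blue, lower point), with bars for the 95% counting interval, a solid line at 1 and a dashed line at 1.5. Cybb lies near 94.1-fold and 95.9-fold, with overlapping intervals, and the other 4 subunits lie at 6.65-fold or less.

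At 6 h Cyba, Ncf4 and Rac2 stood below their 0 h levels in both series. At 6 h of brequinar Cyba stood at 0.818 (0.754 to 0.886), Ncf4 at 0.716 (0.673 to 0.761) and Rac2 at 0.872 (0.848 to 0.897) of its 0 h level. At 6 h of withdrawal Cyba stood at 0.906 (0.836 to 0.980), Ncf4 at 0.826 (0.777 to 0.876) and Rac2 at 0.900 (0.875 to 0.926). All 6 ratios were below 1 with intervals that exclude 1, and none reached the threshold for a call. By the 1.5-fold rule, the background shares of genes called lower at 6 h were 4.97% for brequinar and 8.11% for withdrawal. The share of all genes with an interval below 1, whatever the size, is not given here. The 6 ratios are therefore not read as a result about the members. At 12 h of brequinar no member was called, where 13.5% of genes were called higher and 4.67% lower. At 12 h of withdrawal Ncf1 was called higher at 2.22-fold (1.64 to 3.03) and Cybb lower, against background shares of 13.4% higher and 11.2% lower. With no minimum these were 11.9% and 5.95%. At 24 h of brequinar Ncf1 was the single member called, at 2.42-fold (1.79 to 3.31), where 29.2% of genes were called higher and 13.8% lower. With no minimum 22.6% were called higher. At 24 h of withdrawal Cybb, Cyba and Ncf1 were called higher, where 9.46% of genes were, or 7.40% with no minimum.

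Setting each culture beside the preceding time point shows when the members moved. At 12 h against 6 h no member was called with brequinar, where the background shares were 6.8% higher and 3.36% lower, and Cybb alone was called lower with withdrawal, where they were 3.96% higher and 4.31% lower. At 24 h against 12 h of brequinar Ncf1 (1.97-fold, 1.46 to 2.69) and Ncf4 (1.71-fold, 1.62 to 1.80) were called higher, where 17.2% of genes were called higher and 11.9% lower. At 48 h against 24 h of brequinar Cybb, Cyba (1.90-fold, 1.76 to 2.05) and Ncf1 (1.62-fold, 1.19 to 2.18) were, where 6.64% of genes were called higher and 8.83% lower. At 24 h against 12 h of withdrawal Cybb (7.34-fold, 3.38 to 18.9, and 4.37-fold, 1.94 to 11.5, without cells of 5 or more Cybb UMIs) and Cyba (1.77-fold, 1.65 to 1.90) were called higher, where 5.56% of genes were called higher and 11.7% lower. At 48 h against 24 h of withdrawal Cybb, Cyba (1.78-fold, 1.68 to 1.88), Ncf1 (3.72-fold, 2.92 to 4.75) and Ncf4 (2.47-fold, 2.36 to 2.59) were, where 16.7% of genes were called higher and 28.5% lower.

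Brequinar and withdrawal left the same members at different levels at 48 h. Cybb was at 70.8 CPM with brequinar and 216 CPM with withdrawal, 0.328-fold (0.292 to 0.367). The ratio of brequinar to withdrawal was 0.612 for Cyba (0.568 to 0.658), 0.467 for Ncf1 (0.348 to 0.618) and 0.490 for Ncf4 (0.46 to 0.520). These 4 were called lower with brequinar, where the background share of genes called lower was 8.57% and that of genes called higher 37.6%. Rac2 was at 0.827-fold (0.798 to 0.857), which is under the threshold. At 24 h Cybb (0.276-fold, 0.163 to 0.452) and Cyba (0.573-fold, 0.540 to 0.608) were called lower with brequinar, where 8.05% of genes were called lower (5.41% with no minimum) and 29.6% higher, while Ncf4 (1.02-fold, 0.974 to 1.07) and Ncf1 (1.07-fold, 0.828 to 1.39) had ratios near 1. Without cells of 5 or more Cybb UMIs the Cybb ratio at 24 h was 0.464 (0.263 to 0.797), still called. The calls at 24 h were thus those of Cybb and Cyba, and these cytosolic subunits did not reach the threshold. For Cybb the ratio was already 0.334 (0.172 to 0.614) between the 0 h cultures, and 0.699 (0.333 to 1.44) without cells of 5 or more Cybb UMIs. These intervals overlap those at 24 h, so the Cybb call is not read as a difference that arose by 24 h. At 12 h Ncf1 was called lower with brequinar (0.438-fold, 0.316 to 0.604), with a background share of 7.33%, or 6.398% with no minimum. At 6 h Cybb was (0.360-fold, 0.147 to 0.808), from 9 UMIs with brequinar and 23 with withdrawal, with a background share of 1.45%, or 3.01% with no minimum. This ratio too lay near that between the 0 h cultures.

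The 0 h cultures were set side by side as well, and Cybb alone was called. Cybb had 15 UMIs in 12 cells of the brequinar series and 42 UMIs in 16 cells of the withdrawal series, 0.334-fold (0.172 to 0.614), where 0.0546% of genes of at least 20 CPM, and 0.529% of all genes with a count, were called lower. In the withdrawal 0 h culture 3 cells held 22 of the 42 UMIs, with 9, 8 and 5 UMIs each, and its other cells stood at 1.08 CPM. Without cells of 5 or more Cybb UMIs the ratio was 0.699 (0.333 to 1.44), and the call was lost. The cell with 9 Cybb UMIs also held 670 UMIs of Prg2, which encodes a toxic basic protein of eosinophil granules. Of S100a8 and S100a9, each of the 3 cells held at most 1 UMI per gene. The other 4 members differed by less than the threshold at 0 h, with ratios of 0.955 for Cyba (0.892 to 1.02), 0.791 for Ncf1 (0.561 to 1.11), 0.990 for Ncf4 (0.942 to 1.04) and 0.961 for Rac2 (0.938 to 0.984).

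Single cells showed how the Cybb UMIs were spread. To compare depths, each cell was thinned to 2500 UMIs, leaving out 13 cells at 48 h and 194 at 0 h of brequinar and 75 at 48 h and 180 at 0 h of withdrawal. Cybb was then detected in 9.13% of cells at 48 h (6.78 to 12.0) and 0.306% at 0 h (0.0833 to 0.781) of brequinar. With withdrawal it was detected in 27.5% at 48 h (24.6 to 30.5) and 0.426% at 0 h (0.139 to 0.992). Without thinning the shares were 15.0% at 48 h and 0.798% at 0 h of brequinar and 36.4% at 48 h and 1.18% at 0 h of withdrawal, at the median depths given above. Most cells of both 48 h cultures thus had no Cybb UMI, which at this depth does not show that they lacked the transcript.

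**Figure D3:**
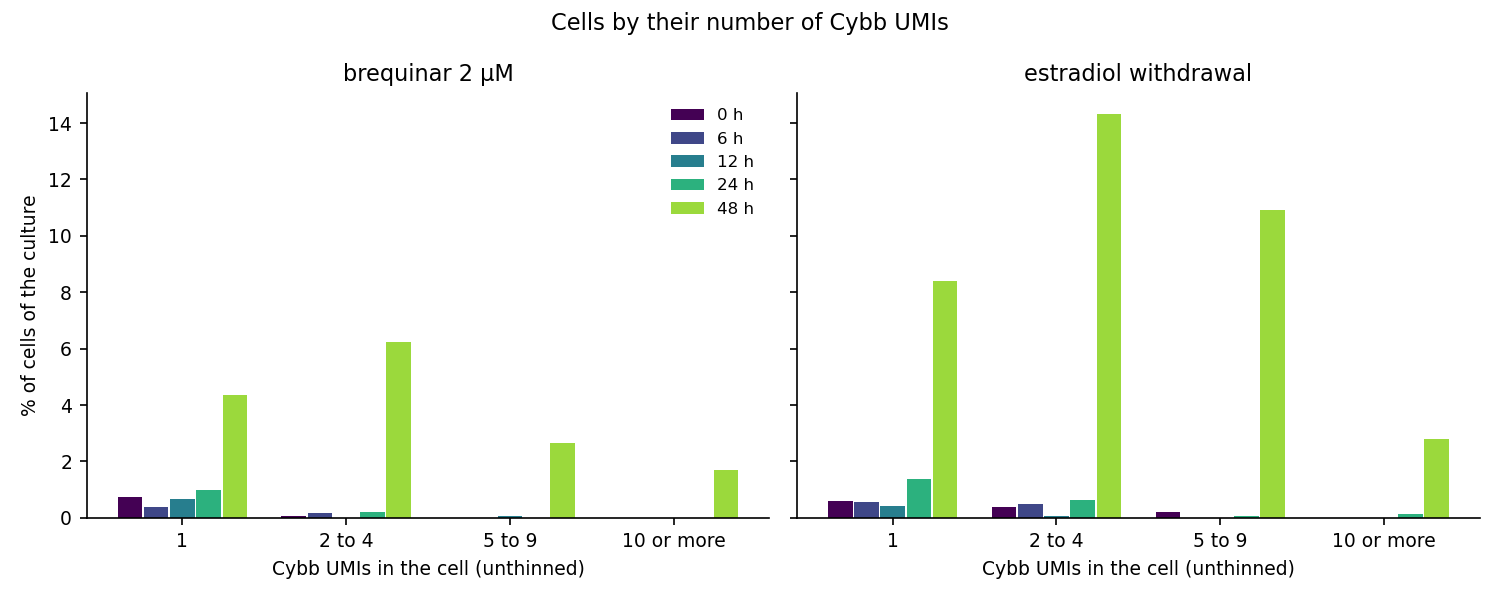
Share of all cells of a culture (y axis, %) by the number of Cybb UMIs in the cell without thinning (x axis, cells with 0 not drawn), for brequinar (left) and beta-estradiol withdrawal (right), with bars coloured by time. At 48 h cells with 2 to 4 Cybb UMIs made up 6.25% with brequinar and 14.3% with withdrawal, and cells with 10 or more made up 1.70% and 2.80%.

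The level of Cybb at 48 h of brequinar came from few cells. The 2% of cells with the most Cybb UMIs (11 of 528) held 47.7% of them at 48 h of brequinar, against 16.9% in the top 2% (20 of 963) at 48 h of withdrawal. For Ncf1, with 68 (brequinar) and 191 (withdrawal) UMIs at 48 h, the corresponding shares were 36.8% and 23.6%. No cell held more than 4 Ncf1 UMIs at 48 h of either series. With so few UMIs the top cells hold a high share in any case. The Ncf1 shares thus cannot show whether the spread of Cybb is particular to it. For Cyba, Ncf4 and Rac2, which had more UMIs, the shares at 48 h were 5.16% to 7.62% in both series. At 48 h of brequinar 9 cells with 10 or more Cybb UMIs, up to 32 in a cell, held 161 of the 371 UMIs.

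Granule genes differed between cells with and without Cybb in both series at 48 h. Among thinned cells with a Cybb UMI, against those without, S100a8 and S100a9, which encode the calprotectin of neutrophils, stood at 5.55-fold (4.76 to 6.46) and 10.8-fold (9.17 to 12.8) with brequinar, and at 2.13-fold (2.09 to 2.17) and 2.53-fold (2.48 to 2.58) with withdrawal. These UMIs were spread over the cells in different ways. At 48 h of brequinar, cells with 0, 1, 2 to 4, 5 to 9, and 10 or more Cybb UMIs held a median of 1, 1, 1, 1.5 and 1 UMIs of S100a8 and S100a9 together, and at 48 h of withdrawal the medians in the same classes were 2, 10, 120, 266 and 603. Of the 14 brequinar cells with 5 to 9 Cybb UMIs, 12 held 3 or fewer UMIs of S100a8 and S100a9 and the highest held 1830, so that S100a8 stood at 5849 CPM in this class and 395 CPM in the brequinar cells with no Cybb UMI. None of the 9 brequinar cells with 10 or more Cybb UMIs held more than 3 UMIs of S100a8 and S100a9, whereas 5 of the 27 such withdrawal cells held 3 or fewer. In brequinar cells with 1, 2 to 4, and 10 or more Cybb UMIs, S100a8 stood at 52.1, 94.8 and 72.1 CPM. S100a9 stood at 34.8, 34.5 and 27.0 CPM in these classes, against 260 CPM in brequinar cells with none. The excess of these genes in brequinar cells with Cybb was thus seen only in the class of 5 to 9, and there in few cells. Outside that class both genes were lower than in cells with none. In withdrawal cells both were higher in every class with Cybb than in cells with none.

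Prg2 stood at 2.14-fold (2.04 to 2.24) in thinned brequinar cells with a Cybb UMI, against those without, and at 1.23-fold (1.19 to 1.27) in withdrawal cells. Prg3, of the same eosinophil marker list, stood at 1.44-fold (1.29 to 1.61) in brequinar cells. In withdrawal cells Prg3 went the other way, at 0.656-fold (0.600 to 0.715). By class Prg2 stood at 19859, 11115, 23238 and 23697 CPM in brequinar cells with 1, 2 to 4, 5 to 9, and 10 or more Cybb UMIs, against 7636 CPM in those with none. In the 9 cells of the last class its UMIs were uneven, at 976, 606, 526, 241, 150, 120, 7, 3 and 2 per cell. In withdrawal cells Prg2 followed no order, at 2498, 8093, 9219 and 2507 CPM in the same classes, against 7935 CPM in those with none. Mpo, the myeloperoxidase of primary granules, was lower in every class with Cybb than in cells with none, at 658 CPM in brequinar cells with 10 or more Cybb UMIs against 1831 CPM in those with none, and at 113 against 615 CPM with withdrawal. These classes were formed on Cybb itself, so the values describe the cells and were not tested.

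Among cells thinned to 2500 UMIs at 48 h of withdrawal, Ncf4 was detected in 82.8% of those with a Cybb UMI (77.5 to 87.3) and in 69.6% of those without (65.8 to 73.1). For Rac2 the shares were 96.7% and 91.3%, for Cyba 56.1% and 58.5%, and for Ncf1 9.84% and 5.59%. Cyba, the membrane partner, was thus detected about as often in cells without a Cybb UMI as in cells with it. At 48 h of brequinar, with 47 cells with and 468 without a Cybb UMI, the intervals of all 4 other members overlapped between these classes.

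The number of subunits seen together in a cell was higher at 48 h. Thinned cells held a mean of 1.90 of the 5 subunits at 48 h and 1.34 at 0 h of brequinar, and 2.58 at 48 h and 1.37 at 0 h of withdrawal. Cells with at least 3 of the 5 made up 22.9% at 48 h and 5.50% at 0 h of brequinar, and 53.7% at 48 h and 6.22% at 0 h of withdrawal. All 5 were seen in 1 of 515 cells at 48 h of brequinar, in 12 of 888 cells at 48 h of withdrawal and in 0 cells of the other 8 cultures.

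**Figure D4:**
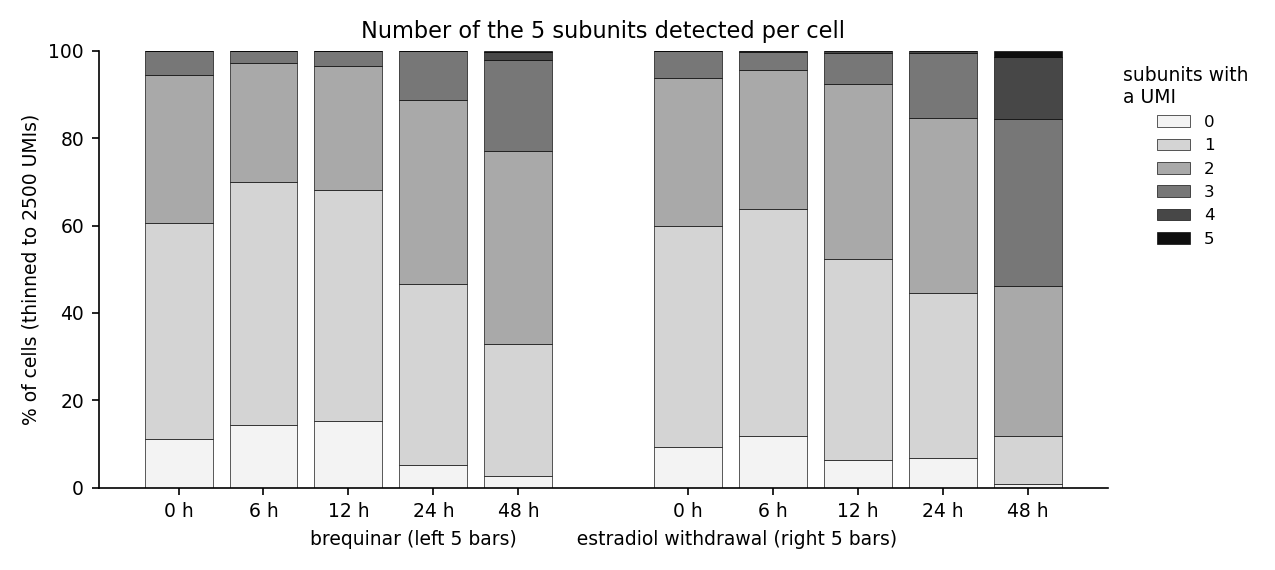
Share of cells thinned to 2500 UMIs (y axis, %) in which 0 to 5 of the subunits had a UMI (grey to black), by time, for brequinar (left 5 bars) and beta-estradiol withdrawal (right 5 bars). The share with 3 or more is highest at 48 h of withdrawal (53.7%) and reaches 22.9% at 48 h of brequinar.

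Between 0 h and 48 h the thinned shares of the other members moved in the same direction as their levels. Cyba was detected in 39.8% of cells at 48 h and 20.0% at 0 h of brequinar, and in 57.9% at 48 h and 20.1% at 0 h of withdrawal. Ncf4 was detected in 47.4% at 48 h and 34.1% at 0 h of brequinar, and in 73.2% at 48 h and 33.7% at 0 h of withdrawal. Rac2 was detected in 90.3% at 48 h and 78.7% at 0 h of brequinar, and in 92.8% at 48 h and 82.0% at 0 h of withdrawal. Ncf1 was detected in 2.91% at 48 h and 0.917% at 0 h of brequinar, and in 6.76% at 48 h and 0.767% at 0 h of withdrawal. If every UMI of a thinned cell were free RNA, the shares would be 18.9% for Cyba, 43.9% for Ncf4, 83.7% for Rac2, 6.35% for Ncf1 and 2.89% for Cybb. The 0 h shares were below these values, or near them for Cyba. Free RNA came from the same pool, so a gene expressed by most cells could give similar shares. The comparison thus cannot tell expression at 0 h from free RNA. The fixed share of free RNA used above would bring 36.3 CPM of Rac2, 11.6 CPM of Ncf4 and 4.19 CPM of Cyba into any culture. At 0 h of brequinar these genes stood at 678, 165 and 85.6 CPM. For Ncf1 and Cybb it would bring 1.31 and 0.587 CPM, against 3.31 and 0.753 CPM. Whether a UMI at 0 h came from the cell that holds it was not tested. At 48 h the intervals of Cybb, Cyba and Rac2 lay above the shares for free RNA alone in both series, and that of Ncf4 did with withdrawal.

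**Figure D5:**
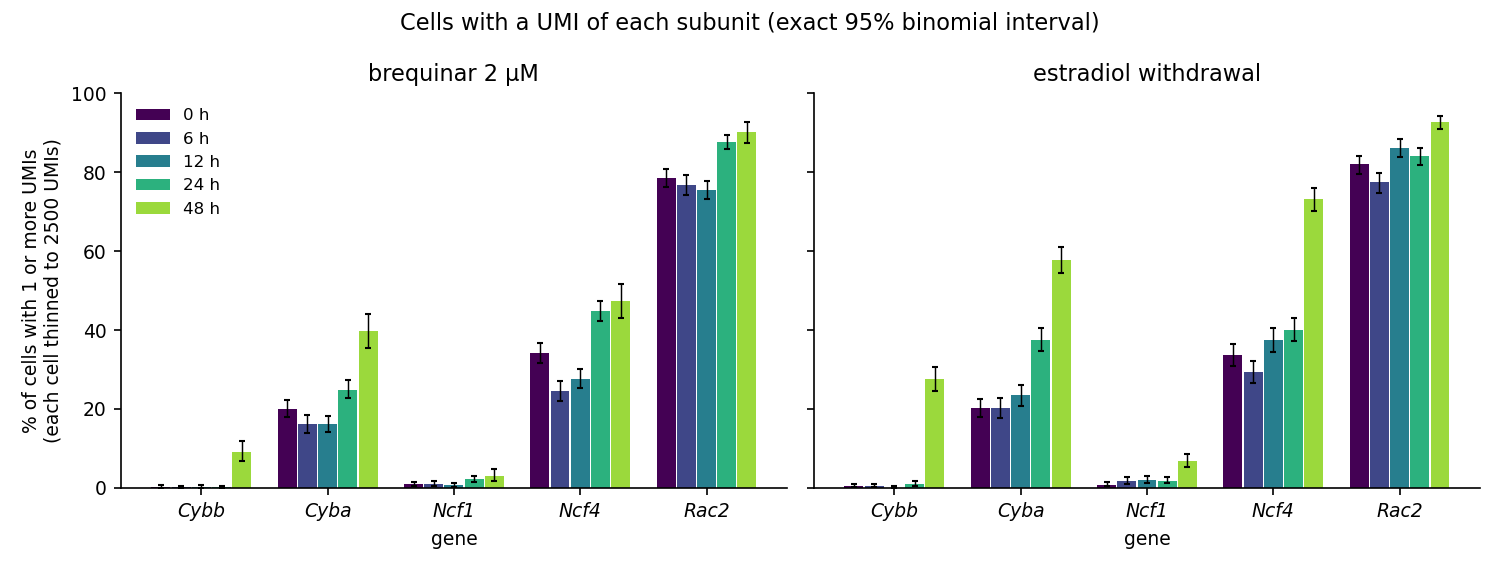
Share of cells with at least 1 UMI of each subunit (y axis, %), each cell thinned to 2500 UMIs, for brequinar (left) and beta-estradiol withdrawal (right), with bars coloured by time and exact 95% binomial intervals. Cybb is seen in under 1% of cells at 0 to 24 h and in 9.13% (brequinar) and 27.5% (withdrawal) at 48 h.

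The partners of the oxidase were followed in lists chosen with earlier results of these data known. Cybc1, which encodes a chaperone of the gp91phox and p22phox pair, was at 42.2 CPM at 48 h and 21.1 CPM at 0 h of brequinar (2.00-fold, 1.69 to 2.36), and at 34.5 CPM at 48 h and 20.2 CPM at 0 h of withdrawal (1.71-fold, 1.44 to 2.01). Rac1, the widely expressed relative of Rac2, was under the threshold in both series (0.813-fold with brequinar, 0.762 to 0.867, and 1.30-fold with withdrawal, 1.24 to 1.36). Hvcn1, the proton channel that offsets the charge moved by the oxidase, stayed at or below 0.729 CPM in all 10 cultures. In the whole list of 23 partners and regulators, 21 were measured at 20 CPM or more at 48 h. Of these 10 were called higher and 0 lower with brequinar (median log2 ratio 0.52, against 0.04 for all genes), and 12 were called higher and 1 lower with withdrawal (0.65, against -0.33). The background shares were 25.7% higher and 17.3% lower with brequinar, and 21.5% higher and 40.7% lower with withdrawal. S100a8 and S100a9, whose protein complex binds the oxidase and which the neutrophil marker list also holds, were at 8.25-fold and 7.88-fold with brequinar and 277-fold and 241-fold with withdrawal. Both are among those called higher in each series. Their UMIs at 48 h of brequinar lay in few cells. Of the 449 cells there with no Cybb UMI, 96.0% held 3 or fewer UMIs of both together, and the highest held 1251. After S100a8 and S100a9, the largest ratio with withdrawal was that of Prkcb, a protein kinase C that phosphorylates p47phox (6.32-fold). It had the largest ratio of the list with brequinar (8.43-fold). Lowest were Pla2g4a (0.726-fold with brequinar and 0.419-fold with withdrawal), a phospholipase that releases arachidonic acid, and Arhgdia, an inhibitor of small GTPases of the Rac kind (0.743-fold and 0.816-fold). Of these 4 ratios that of Pla2g4a with withdrawal was called.

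Oxidase genes of other tissues were not found at comparable depth. Of 10 such genes (Nox1, Nox3, Nox4, Duox1, Duox2, Duoxa1, Duoxa2, Noxo1, Noxa1 and Rac3), none reached 20 CPM in any culture, and 5 had 0 counts in all 10. The highest was Rac3 at 2.13 CPM. Of 10 enzymes that make NADPH, 7 were measured. Idh1, the cytosolic isocitrate dehydrogenase, and Pgd of the pentose phosphate pathway were called higher at 48 h with brequinar (5.19-fold and 1.76-fold) and with withdrawal (4.35-fold and 2.20-fold). Called lower were Mthfd1, a folate enzyme, with brequinar (0.545-fold), and Idh2, Mthfd1, Me2 and Mthfd2 with withdrawal (0.299-fold to 0.666-fold). These counts, 2 higher and 1 lower of 7 with brequinar and 2 higher and 4 lower of 7 with withdrawal, stand beside background shares of 25.7% and 17.3%, and of 21.5% and 40.7%. The list's median log2 ratio was -0.25 with brequinar and -0.56 with withdrawal.

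Of 11 enzymes that use or remove superoxide and hydrogen peroxide, 10 were measured with brequinar and 11 with withdrawal at 48 h. With brequinar 4 were called higher and 2 lower (median log2 ratio 0.19). With withdrawal 3 were called higher and 6 lower (median -0.90). Beside the background shares of 25.7% higher and 17.3% lower with brequinar, and 21.5% higher and 40.7% lower with withdrawal, these counts are not read as a result about the list. Prdx5, a peroxiredoxin, was higher in both, at 4.18-fold with brequinar and 7.99-fold with withdrawal. Mpo, which makes hypochlorous acid from hydrogen peroxide, stood on opposite sides of its 0 h level at 48 h. With brequinar it was at 1712 CPM at 48 h and 931 CPM at 0 h (1.84-fold, 1.79 to 1.89). With withdrawal it was at 503 CPM at 48 h and 941 CPM at 0 h (0.535-fold, 0.516 to 0.555). At 24 h Mpo was above its 0 h level in both series, at 1384 CPM with brequinar and 2859 CPM with withdrawal. At that time it was called higher with withdrawal. With withdrawal the 5 subunits were thus higher at 48 h while Mpo and Prdx1 (0.338-fold) were lower.

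Of 17 transcription factors known to act on oxidase genes, 13 were measured at 48 h. With brequinar 8 were called higher and 0 lower (median log2 ratio 0.70), and with withdrawal 8 higher and 2 lower (0.66), where the background shares were 25.7% higher and 17.3% lower, and 21.5% higher and 40.7% lower. Spi1, which encodes PU.1, was at 694 CPM at 48 h and 187 CPM at 0 h of brequinar (3.71-fold, 3.54 to 3.88) and at 755 CPM at 48 h and 198 CPM at 0 h of withdrawal (3.82-fold, 3.66 to 3.99). It was already 3.29-fold at 24 h of brequinar and 2.52-fold at 24 h of withdrawal, when Cybb was at 1.31 CPM (brequinar) and 4.74 CPM (withdrawal). Cebpe, a C/EBP factor of late granulocytes, was 5.23-fold with brequinar and 5.25-fold with withdrawal at 48 h. The largest ratio was that of Jun, at 8.92-fold with brequinar and 5.54-fold with withdrawal, and Cebpa (0.531-fold) and Gfi1 (0.557-fold) were lower with withdrawal. Irf8, an interferon regulatory factor known from human cells to act on the CYBB promoter, stayed at or below 0.737 CPM in all 10 cultures.

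The genes whose levels over the 10 cultures were most like each member, by Pearson's r of log2(CPM + 5) among 6615 genes, are given as a description, since the cultures share their series and times. For Cybb they were the complement gene C3, the receptor gene Pilrb1 and the chemokine gene Cxcl2 (r = 0.98 each). For Cyba they were Prdx5 (r = 0.99), Hopx and Sem1 (r = 0.98 each), and for Ncf1 Ugp2, Bcl10 and Tcp11l2 (r = 0.98 each). For Ncf4 they were Arpc5, a subunit of the actin-branching Arp2/3 complex (r = 0.99), Lrrc25 and Sh3bgrl3 (r = 0.98 each), and for Rac2 Pqlc1 (r = 0.98), Nceh1 and the myosin light chain gene Myl6 (r = 0.97 each). The other members were left out of this ranking. Among the subunits, Ncf4 and Rac2 had r = 0.97 with each other and Cybb r = 0.80 to 0.89 with the other 4.

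Summed markers of neutrophils, eosinophils and monocytes were higher at 48 h than at 0 h in both series. Those of megakaryocytes were higher with brequinar and differed little with withdrawal. Those of mast cells and basophils were higher with brequinar and lower with withdrawal. Those of myeloid progenitors and the B lineage were lower at 48 h than at 0 h in both. The part of these cell types in the results was not tested. The 11 neutrophil markers summed to 1960 CPM at 48 h and 329 CPM at 0 h of brequinar, and to 59036 CPM at 48 h and 387 CPM at 0 h of withdrawal. The 9 eosinophil markers summed to 11671 CPM at 48 h and 1445 CPM at 0 h of brequinar, and to 9181 CPM at 48 h and 1237 CPM at 0 h of withdrawal, with Ear1 and Ear2 at 0 in all 4 cultures. The 10 monocyte markers summed to 795 CPM at 48 h and 147 CPM at 0 h of brequinar, and to 645 CPM at 48 h and 145 CPM at 0 h of withdrawal. The 8 mast cell and basophil markers summed to 3323 CPM at 48 h and 438 CPM at 0 h of brequinar, and to 326 CPM at 48 h and 465 CPM at 0 h of withdrawal, with Tpsb2, Tpsab1 and Fcer1a at 0. The 6 myeloid progenitor markers were all detected at 0 h and summed to 436 CPM at 48 h and 619 CPM at 0 h of brequinar, and to 207 CPM at 48 h and 608 CPM at 0 h of withdrawal. With brequinar their sum lay above its 0 h value before 48 h, at 954, 942 and 855 CPM at 6, 12 and 24 h. At 48 h of withdrawal not every marker of this list followed the sum. The 6 B lineage markers summed to 275 CPM at 48 h and 528 CPM at 0 h of brequinar, and to 84.8 CPM at 48 h and 494 CPM at 0 h of withdrawal, with Ms4a1 and Pax5 at 0 at 48 h. T lineage and erythroid markers summed to less than 10 CPM in these 4 cultures. The 4 megakaryocyte markers summed to 179 CPM at 48 h and 31.5 CPM at 0 h of brequinar, and to 37.2 CPM at 48 h and 32.4 CPM at 0 h of withdrawal. In sums over a culture, more cells with a transcript and more transcript per cell cannot be told apart.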

How the data were processed

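Single-cell RNA of 10 cultures of the 63.3 line was analysed. The deposited matrices, 1 of spliced and 1 of unspliced reads, hold whole-number UMI counts for each gene in each barcode, with both runs together. They came with a table that gives each MULTI-seq barcode its treatment and time and an annotation of each cell's barcode call. Tools named in the submitters' processing notes are Cell Ranger, kallisto 0.46 and bustools 0.39.4. Which genome build and gene annotation were used is not given in the sources used here. Gene symbols were assigned to 54723 of 54838 Ensembl IDs from a table of gene names. Barcodes that the authors called doublets (2777) or negative (265) were left out, and 12540 cells were kept with no further filter and no doublet caller. The kept cells held 134068354 of 209704818 spliced UMIs (63.9%). The runs are not marked in the barcodes, which makes barcodes shared between them uncountable. The unspliced matrix was not used here.

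Spliced counts were summed per culture and scaled to CPM of that sum, computed here from the deposited counts. Cultures held 5236694 to 19931921 UMIs. Folds carry an exact conditional binomial 95% interval (Clopper-Pearson, scipy 1.17.1), which covers counting error only. The step was tested on simulated data. Neither cells nor runs are replicates, so no test was run. Fold thresholds were 1.5, or 2 as an alternative. Cells were thinned to 2500 UMIs, a depth that at least 80% of the cells in every culture reached. Other alternatives were median-of-ratios size factors, TMM factors (edgeR 4.0.16, R 4.3.3), leaving out cells of at least 10% mitochondrial UMIs or the 2% of cells richest in granule genes, the 0 h culture of the other series, removal of 5% free RNA and means of per-cell CPM. All 5 members were named in each comparison. Partner genes were named by rule (8 always, and the 3 largest ratios in each direction per list, of which the text gives part), and so were the 3 genes most like each member. The 9 cells of high Cybb at 48 h of brequinar, and the 3 at 0 h of withdrawal, were described after their values were seen. The members and lists were chosen with earlier results of these data known. Single values of some listed genes are not reported here, though counts and sums over their lists include them.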

Additional observations from a re-analysis of the deposited data

Results flagged for a closer look

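At 12 h Cyba, Ncf4 and Rac2 stood on opposite sides of their 0 h level in the 2 series, which is what marks them here. Cyba was at 0.863 of its 0 h level with brequinar and 1.17 with withdrawal. Ncf4 was at 0.821 with brequinar and 1.2 with withdrawal. Rac2 was at 0.94 with brequinar and 1.17 with withdrawal. None of these ratios reached the 1.5-fold threshold, each rests on 1 culture per condition, and the difference between the series was not tested. The counting intervals of all 6 ratios exclude 1, and no alternative moved any of them to the other side of 1. The share of all genes that would meet this looser rule is not given here.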

How the results depend on the processing

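No called fold of a member changed direction under any alternative run. Of 573 alternative fold values, 453 stayed within the spread allowed by the counting interval and 120 moved beyond it. They include Cybb folds without cells of 5 or more Cybb UMIs before 48 h, an alternative chosen after seeing the data, which gave 201 at 48 h of withdrawal. At 48 h the fold against 0 h ranged over the alternatives from 31.4 to 467 for Cybb with brequinar (the highest with 5% free RNA removed, which left 3 counts at 0 h, 159 to 2274) and from 95.9 to 287 with withdrawal. The ranges were 2.06 to 2.47 (brequinar) and 3.68 to 4.39 (withdrawal) for Cyba, 3.10 to 5.80 and 6.37 to 9.54 for Ncf1, 1.45 to 1.76 and 3.33 to 3.99 for Ncf4, and 1.22 to 1.52 and 1.60 to 1.93 for Rac2. The count of members called at 48 h stayed within 1.5 times its value under every alternative run. Other scalings shifted the median of all genes by up to -0.24 log2 (24 h of brequinar) and 0.25 log2 (48 h of withdrawal).

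Small counts of called members did move, and the cause was not tested. The 1 member called at 6 h of brequinar became 0 at a 2-fold threshold, in thinned cells and against the other 0 h culture. The 1 member called at 6 h of withdrawal became 0 at a 2-fold threshold and in thinned cells, and 2 against the other 0 h culture. The 1 member called at 24 h of brequinar became 2 with free RNA removed and with per-cell means. Between brequinar and withdrawal, the 1 member apart at 12 h became 3 with size factors and per-cell means and 2 with TMM factors and free RNA removed. The 2 members apart at 24 h became 1 at a 2-fold threshold. The 1 apart at 6 h became 0 in thinned cells and without the granule-rich 2% of cells. The 1 apart at 0 h became 0 in thinned cells and 2 with per-cell means. With a pseudocount of 1 CPM, Wfdc21 was the gene most like Cybb, Clec7a entered for Ncf4 and Lrrc25 for Rac2. No paired analysis was possible because each condition is 1 culture and the replicate numbers in the labels mark runs of 1 pool. Depth limits the early values of Cybb (7 to 69 UMIs before 48 h) and Ncf1 most.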
